A study of Mus musculus with 2 samples.

Results

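The genes described here encode the working parts of the lysosome: 44 genes for its proteases, glycosidases, lipid hydrolases and their cofactors, its membrane proteins and cholesterol carriers, its proton pump and the transcription factor TFEB. The rule uses names alone, and a gene was a member when its symbol was identical to a feature name in both expression tables. All 44 were found among 35522 features. The RNA came from mouse neutrophils that had been sorted from bone marrow as CD11b-positive, Ly6G-high cells with low or no Ly6C. In both groups they were kept in RPMI medium to which the myeloid growth factor GM-CSF had been added at 10 ng/ml. The study used Balb/C mice, and whether marrow of several animals was pooled is not given in the sources used here. The control group received PBS for 3 days. The treated group received 20 μg/ml exosomes for 3 days, the vesicles that ultracentrifugation pellets from culture medium. Their source was the murine colon cancer line CT26 grown as spheres without serum, cells the study names sphere-derived cancer stem cells (SDCSCs), so 1 cell line stands for the tumor. Each group holds 1 library of mRNA, so no value below has a spread between replicates and no test between the treatments was possible.

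Lysosomes are acidic compartments in which proteins, glycans, lipids and nucleic acids are broken down. The V-ATPase pumps protons into them, the hydrolases work at the acid pH so made, and heavily glycosylated proteins such as LAMP1 and LAMP2 line the membrane. TFEB and its relatives TFE3 and MITF bind an E-box in the promoters of many lysosomal genes and raise their transcription. Neutrophils keep much of their acid hydrolase content in granules, and CD63 is a membrane protein of their azurophil granules, whereas macrophages are rich in classical lysosomes.

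Values are RPKM, the reads of a gene scaled by the length of its exons and by the mapped reads of the library, so that levels can be compared between genes. Genes below 0.25 RPKM in either library were set aside and the others are called genes kept. Ratios are the exosome value over the PBS value, and a gene kept is said to have risen where its ratio reached 2 and fallen where it was 0.5 or lower. Log2 fold changes are log2 of that ratio. Mapped reads were estimated from the smallest values in the tables at 65.96 M for PBS and 79.12 M for the exosome library. The members were covered by 113 to 228783 estimated reads in PBS. Of 9698 genes kept, 31.5% rose and 5.62% fell, and the median log2 fold change of these genes was 0.53. The scaling of the libraries therefore matters for every small ratio below.

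The labelled cell type was checked against marker genes. All 14 neutrophil markers were kept, of which 11 fell and 1 rose. Their summed RPKM went from 86976 to 35082, most of it from S100a8 and S100a9, the latter at 43059 and 13834. Lcn2 rose from 1626 to 4081 RPKM, and Mmp9 and Itgam stayed within 2-fold. S100a9, Lcn2, Mmp9 and Itgam were named after their values were seen. Ly6g, the sorting marker, was at 287 and 56.2 RPKM, S100a8 at 32823 and 14382, and Csf3r, the receptor of G-CSF, at 1549 and 715. Mpo, a marker of immature granulocytes, was low in both libraries, at 5.48 and 8.42. All 17 macrophage and monocyte markers were in the tables and 10 were kept, of which 6 rose and 1 fell. Their summed RPKM was 6477 in PBS and 15002 with exosomes, most of it from Lyz2, which neutrophils also express. Ly6c2, the marker of this list that fell, was at 184 and 37.1 RPKM, and Cd14 at 118 and 209, both given after their values were seen. Without Lyz2, Ly6c2 and Cd14 the sums were 82.0 and 327, most of it from Csf1r and Emr1. Csf1r rose from 58.1 to 153 RPKM and Emr1, which encodes F4/80, from 20.9 to 152, while C1qa was at 0.18 and 1.42 and Mrc1 at 0.04 and 0.38. None of the 17 was at 0, and 3 were below 0.1 RPKM in PBS and 1 with exosomes. Cd68, a lysosomal membrane protein often used to mark macrophages, was at 83.9 and 146 RPKM. Summed levels of B cell markers were 115 and 70.3 RPKM, of dendritic cell markers 172 and 120, and of T and NK cell markers 57.8 and 7.83, nearly all of it from Cd3d, named after its values were seen, at 56.4 and 7.02. Those of the primary granule, eosinophil, basophil and mast cell, erythroid and epithelial carcinoma lists lay between 0.205 and 17.4. The part of these shifts in the results that follow was not tested, and in a bulk library fewer cells of a type and less RNA per cell cannot be told apart.

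All 44 members were kept, since the lowest, Glb1, had 0.61 RPKM in PBS. Of these, 13 rose (29.5%), 1 fell (2.27%) and 30 stayed within 2-fold. These shares lie close to or below those of all genes kept, 31.5% and 5.62%. With centring within bins of level 9 of the 44 members rose and 2 fell, beside 1290 and 1304 of the 9698 genes kept. In that setting the share of members that rose was the larger and the share that fell the smaller. As deposited, the median log2 fold change of the members was 0.47, beside 0.53 for all genes kept. A change of at least 4-fold was reached by 4 members, or 9.09%, against 8.52% of all genes kept, and these were Ctss, Ctsb, Ctsl and Lgmn, each a gene of a cysteine protease. The 44 genes held 1.26% of the summed RPKM in PBS and 1.51% with exosomes.

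Most members are abundant, and abundant genes moved less in these libraries. Among genes with a mean RPKM of at least 50, 12.5% rose and 11.4% fell, with a median log2 fold change of 0.038. Of the 24 members at that level 6 rose (25.0%) and 1 fell (4.17%), with a median of 0.33. The 6 were Ctsa, Ctsb, Ctsl, Lipa, Ppt1 and Lamp1. Among genes below 50 RPKM 33.9% rose and 4.88% fell, and of the 20 members at that level 7 rose (35%) and 0 fell. The plot of change against level shows the members inside the cloud of all genes, with the cathepsins spread most widely.

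**Figure D1:**
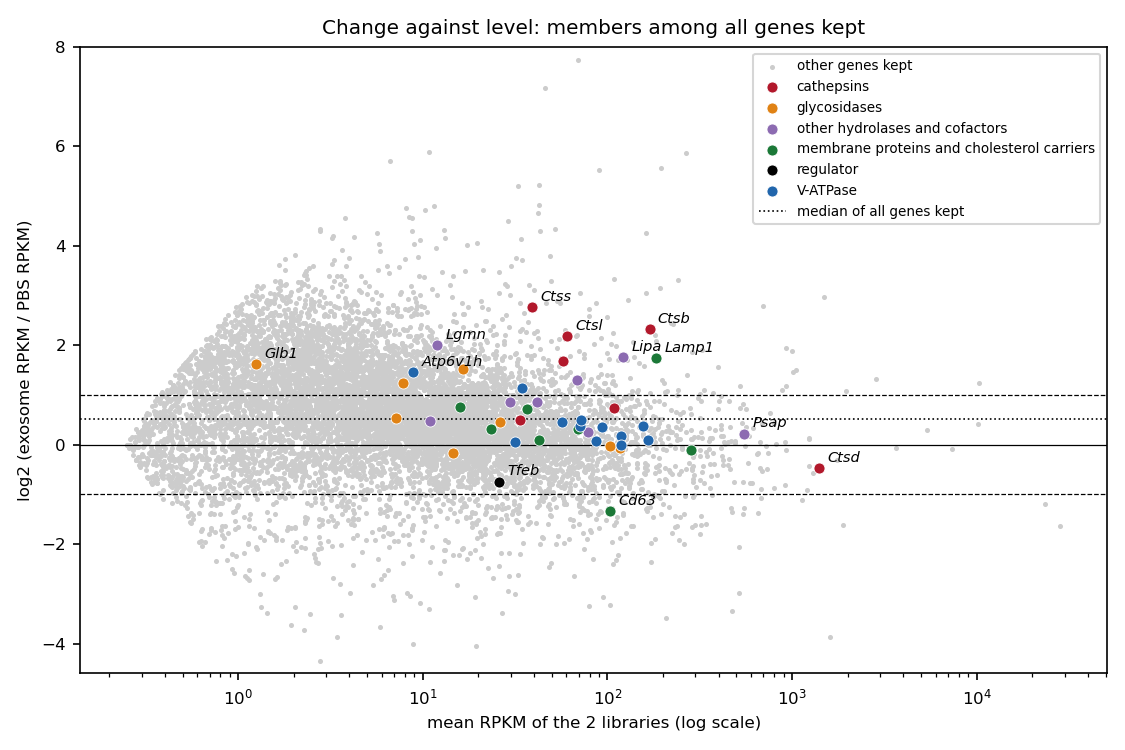
Log2 of the exosome over the PBS RPKM (vertical axis) against the mean RPKM of the 2 libraries (horizontal axis, log scale) for the 9698 genes kept (grey) and the 44 members (coloured by class). Dashed lines mark 2-fold, the dotted line the median of all genes kept, 0.53, and Ctss, at 2.77, is the highest member.

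The classes differed in how they were spread. Of 7 cathepsins 4 rose, of 8 glycosidases 3, of 8 other hydrolases and cofactors 3, of 8 membrane proteins and cholesterol carriers 1, and of 12 V-ATPase genes 2. Their median log2 fold changes were 1.67, 0.49, 0.86, 0.31 and 0.36, in the same order. The 23 hydrolase genes together had 10 that rose and 0 that fell, with a median of 0.86. Beside these counts stand the 31.5% of all genes kept that rose and the 5.62% that fell, and the 3 of 8 (37.5%) of the glycosidases and of the other hydrolases lie near the first. These are counts within 1 pair of libraries, and the differences between the classes were not tested.

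**Figure D2:**
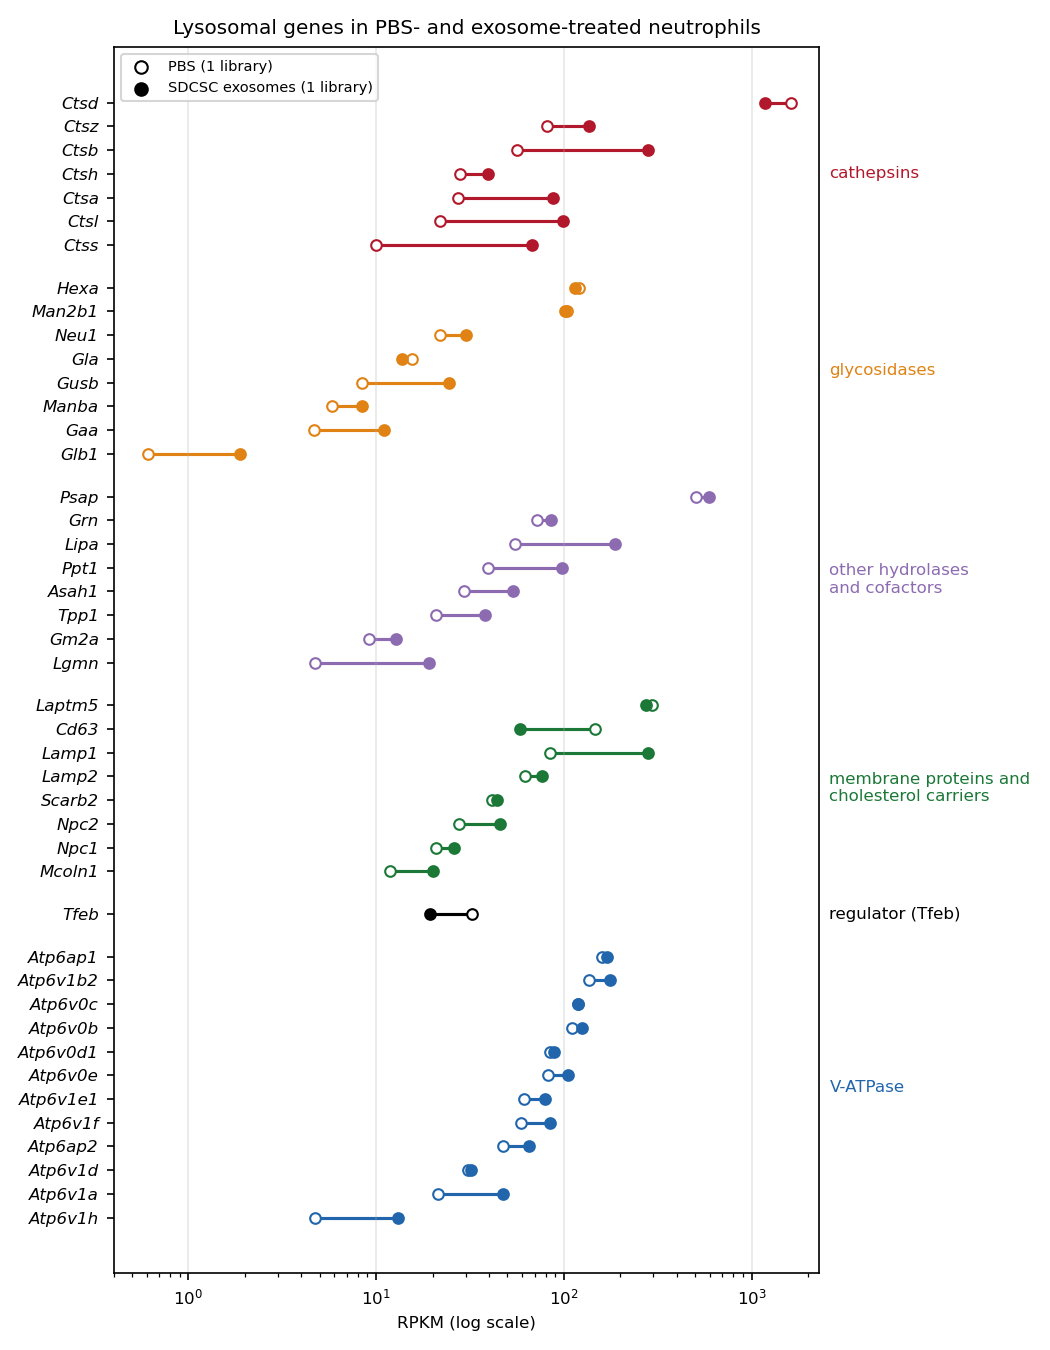
RPKM of each member (horizontal axis, log scale) in the PBS library (open circle) and the SDCSC exosome library (filled circle), by class. Ctsd heads both libraries, at 1631 and 1175 RPKM, and the longest rightward steps are those of Ctss, Ctsb, Ctsl and Lgmn.

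Tfeb, the regulator, was at 32.3 RPKM in PBS and 19.3 with exosomes, a ratio of 0.60 (log2 fold change -0.74, counting interval -0.81 to -0.68). Its change stayed within 2-fold, and 8.75% of the genes kept had an equal or lower ratio. After centring on the median of all genes, removal of a trimmed mean and centring within bins of level it passed 2-fold, at -1.27, -1.28 and -1.05. The counting interval is an exact Clopper-Pearson interval at 95% of the estimated reads, and it covers counting error only. The relatives Tfe3, at 49.7 and 45.4 RPKM, and Mitf, at 18.2 and 14.3, had ratios of 0.91 and 0.79. The mRNA level of these factors does not report their activity, which is known to be set largely by phosphorylation and entry into the nucleus.

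The promoters of the members were searched for the TFEB-type E-box because the members share this known regulator. RefSeq windows from 250 bases before to 50 bases after each start (GRCm38.p6) were given for 38 of the 44 members. The 8-base motif TCACGTGA, a palindrome that reads the same on both strands, was in 7 of these 38 (18.4%), against 0.974% of all 32851 windows, 1.12% of all genes of the table and 2.42% of the genes kept. Its 6-base core CACGTG, which lies within it, was in 13 of the 38 (34.2%), against 7.15% of all windows and 12.3% of the genes kept. Of 90 other lysosomal genes with a window, 8 (8.89%) held the longer motif. The motif was originally described in lysosomal promoters, so these shares are not independent of the choice of the members, and a match is a description, not a bound site.

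Stretches of 6 promoters are shown because they carry the motif before the start of transcription while their RNA behaved differently. Capitals mark each CACGTG, widened to TCACGTGA where the flanking bases match, and the sequences run 5′ to 3′ on the strand of the gene. Distances count from the start in the RefSeq promoter table, which for Atp6v0b and Atp6v1a lies inside the outermost bounds of the gene.
Ctsd (chr7:142387889-142388077, minus strand, ratio 0.72): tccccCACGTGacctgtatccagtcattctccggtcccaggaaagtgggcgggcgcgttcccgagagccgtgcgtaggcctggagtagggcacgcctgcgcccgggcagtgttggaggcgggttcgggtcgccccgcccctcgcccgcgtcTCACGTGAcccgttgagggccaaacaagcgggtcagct
Lamp1 (chr8:13159070-13159160, plus strand, ratio 3.36): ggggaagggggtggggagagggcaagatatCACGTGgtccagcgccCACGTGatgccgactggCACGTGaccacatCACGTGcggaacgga
Mcoln1 (chr8:3500418-3500510, plus strand, ratio 1.69): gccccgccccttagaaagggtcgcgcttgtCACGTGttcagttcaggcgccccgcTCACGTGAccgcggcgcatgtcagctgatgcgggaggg
Gla (chrX:134601163-134601255, minus strand, ratio 0.89): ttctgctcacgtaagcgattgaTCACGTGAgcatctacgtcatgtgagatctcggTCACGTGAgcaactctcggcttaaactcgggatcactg
Atp6v0b (chr4:117887330-117887395, minus strand, ratio 1.12): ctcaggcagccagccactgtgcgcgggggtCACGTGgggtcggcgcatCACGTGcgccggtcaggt
Atp6v1a (chr16:44139354-44139421, minus strand, ratio 2.20): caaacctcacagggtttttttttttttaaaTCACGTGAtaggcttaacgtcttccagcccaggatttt

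Lamp1 holds 4 cores within 61 bases of its start and rose, while Gla holds the longer motif at 2 places and had a ratio of 0.89. The 7 members with the longer motif, which are Ctsa, Ctsd, Gla, Mcoln1, Atp6v0d1, Atp6v0e and Atp6v1a, had a median log2 fold change of 0.36 and 2 of them rose. The 25 members with neither form had a median of 0.37 and 4 rose. The 6 members with the core alone had a median of 1.69 and 5 rose, namely Ctsl, Lgmn, Lamp1, Glb1 and Gaa, the exception being Atp6v0b. Centring within bins of level put Glb1 and Gaa within 2-fold, at 0.51 and 0.67. Of all genes kept 31.5% rose, and the differences between these small groups were not tested. The windows of Ctsb, Ctsh, Asah1, Npc1, Atp6v1b2 and Atp6v1h were not analysed here.

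**Figure D3:**
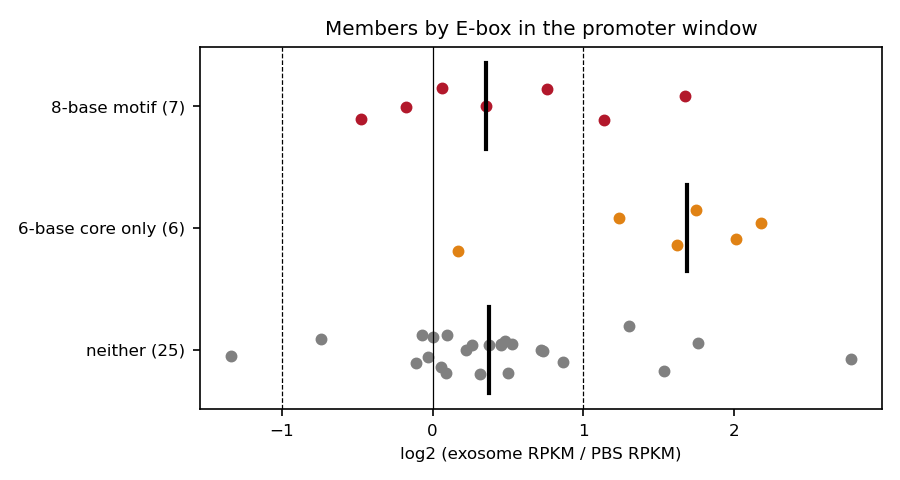
Log2 of the exosome over the PBS RPKM (horizontal axis) of 38 members with a promoter window, by whether the window held the 8-base motif (7 genes), its 6-base core alone (6) or neither (25). Bars mark medians, 0.36, 1.69 and 0.37, and dashed lines mark 2-fold.

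Cathepsins are the main lysosomal proteases. Cathepsin D, an aspartic protease, was the most abundant member in both libraries. Ctsd (chr7:142375910-142387827) was at 1631 RPKM in PBS and 1175 with exosomes, a ratio of 0.72 (log2 fold change -0.47). The change stayed within 2-fold, 13.3% of the genes kept had an equal or lower ratio, and with a trimmed mean removed it passed 2-fold, at -1.01. Of the cysteine cathepsins Ctss, Ctsb and Ctsl rose, while Ctsz and Ctsh stayed within 2-fold. Ctss (chr3:95526786-95556405), whose product works in antigen-presenting cells and trims the invariant chain of MHC class II, rose from 9.94 to 68.0 RPKM, 6.84-fold (log2 fold change 2.77, counting interval 2.67 to 2.88). Ctsb (chr14:63122462-63145923) rose from 56.2 to 282 RPKM, 5.02-fold. Ctsl (chr13:64361890-64370772) rose from 21.9 to 99.1, 4.52-fold. Their log2 fold changes lay at or above the 93.5th percentile of the genes kept.

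Ctsa, a serine carboxypeptidase that also protects β-galactosidase and neuraminidase in a complex, rose from 27.3 to 87.1 RPKM, 3.19-fold. Ctsz, a carboxypeptidase, was at 81.7 and 136 RPKM, and Ctsh, an aminopeptidase, at 28.01 and 39.4, ratios of 1.66 and 1.41. The order of the levels changed with these steps. Ctsb moved from the third to the second place among the cathepsins, Ctsl from the sixth to the fourth, and Ctsh from the fourth to the last.

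With Ctsd lower and the other 6 higher, the summed cathepsin RPKM hardly differed as deposited, at 1856 in PBS and 1887 with exosomes. Ctsd made up 87.9% of that sum in PBS and 62.3% with exosomes. The other 6 cathepsins together went from 225 to 711 RPKM, a ratio of 3.16. The ratio of Ctsd to Ctss RNA went from 164 to 17.3, and that of Ctsd to Ctsb from 29.0 to 4.17. As deposited, the total of the class thus stayed level while the share of Ctsd in it was lower. The ratio of the totals was 1.02, beside 0.97 for the summed RPKM of all genes kept. For genes with a mean RPKM of at least 50 the ratio of the sums was 0.88.

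**Figure D4:**
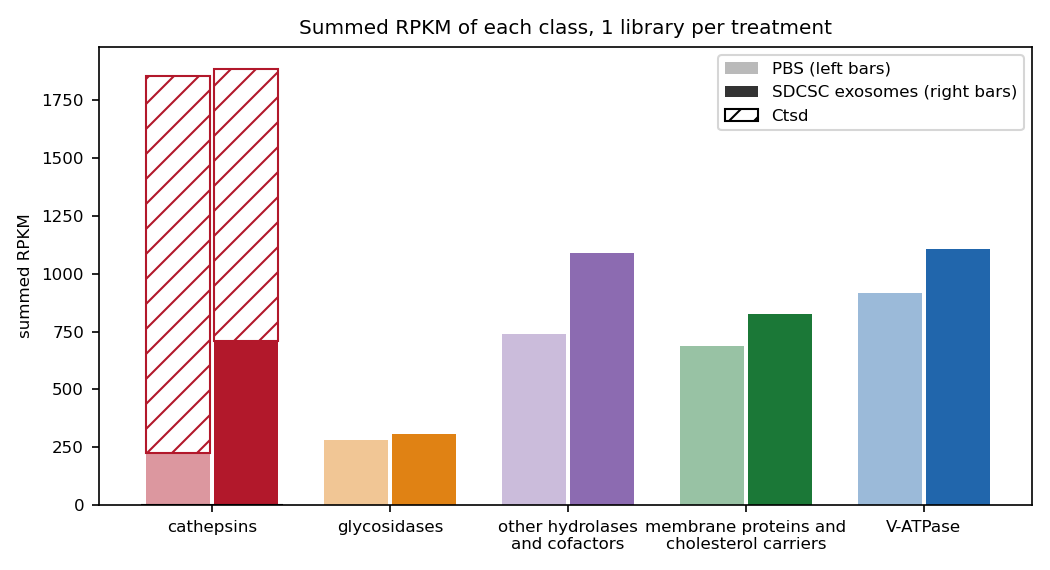
Summed RPKM (vertical axis) of 5 classes in the PBS library (left, pale) and the SDCSC exosome library (right, dark), with Ctsd hatched. Cathepsins summed to 1856 and 1887 RPKM, of which Ctsd gave 1631 and 1175.

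Glycosidases remove sugars from glycoproteins and glycolipids. The most abundant of them barely differed between the libraries. Hexa, the α subunit of β-hexosaminidase, was at 120.5 RPKM in PBS and 114.5 with exosomes, and Man2b1, lysosomal α-mannosidase, at 103.7 and 101.7. Gla, α-galactosidase A, was at 15.4 and 13.7 RPKM. Their ratios were 0.95, 0.98 and 0.89, against a median ratio of 1.44 for all genes kept. For genes with a mean RPKM of at least 50, which include Hexa and Man2b1, the median ratio was 1.03.

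The glycosidases that rose were low in PBS. Gusb, β-glucuronidase, rose from 8.45 to 24.4 RPKM, 2.89-fold. Gaa, the enzyme that breaks down lysosomal glycogen, rose from 4.66 to 11.0, 2.35-fold. Glb1, β-galactosidase, rose from 0.61 to 1.88, 3.08-fold, and with 113 and 417 estimated reads its log2 fold change of 1.62 had the widest counting interval of the members, 1.32 to 1.93. Neu1, the sialidase that shares a complex with Glb1 and Ctsa, was at 21.97 and 30.1 RPKM, and Manba, β-mannosidase, at 5.85 and 8.44, ratios of 1.37 and 1.44. Centring within bins of level put Gaa and Glb1 within 2-fold, at 0.67 and 0.51, and centring on the median put Gaa there, at 0.71. With a trimmed mean removed Gusb was at 0.99. In that complex the ratios of Ctsa and Glb1 were thus near 3 and that of Neu1 was lower.

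Among the other hydrolases, those of lipids and of proteins included large steps. Lgmn (chr12:102394082-102439728), legumain, an asparaginyl protease that also processes cathepsins, rose from 4.74 to 19.1 RPKM, 4.03-fold. Lipa (chr19:34492316-34527474), the lipase that frees cholesterol from its esters, rose from 55.3 to 187.5, 3.39-fold. Ppt1, which removes fatty acids from proteins, rose from 39.7 to 98.0, 2.47-fold, but lay within 2-fold after median centring, at 0.78. Tpp1, a tripeptidyl peptidase, was at 20.96 and 38.1 RPKM and Asah1, acid ceramidase, at 29.5 and 53.6, ratios of 1.82 and 1.81 that stayed below 2-fold. Psap, the precursor of the saposins that help sphingolipid hydrolases, was the second most abundant member, at 508.6 and 593.4 RPKM, a ratio of 1.17. Gm2a, the activator that presents GM2 ganglioside to its hydrolase, was at 9.15 and 12.8 RPKM, a ratio of 1.39. Grn, progranulin, a cofactor and secreted growth factor, was at 71.7 and 85.8. All 8 genes of this class had ratios above 1 as deposited, but under median centring and with a trimmed mean removed Psap, Grn and Gm2a had ratios below 1.

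The membrane proteins held both a gene that rose and the member that fell. Lamp1 (chr8:13159161-13175338) rose from 84.0 to 282 RPKM, 3.36-fold, and moved from the 12th to the 4th place among the members. Its relative Lamp2, which also serves chaperone-mediated autophagy, was at 61.9 and 76.8 RPKM, a ratio of 1.24. The Lamp1 to Lamp2 RNA ratio went from 1.36 to 3.67. Cd63 (chr10:128896231-128912822), a tetraspanin, fell from 147.4 to 58.4 RPKM, a ratio of 0.40 (log2 fold change -1.34, counting interval -1.37 to -1.31). Of the genes kept, 3.50% had an equal or lower ratio.

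The remaining membrane genes stayed within 2-fold. Laptm5, a lysosomal transmembrane protein of blood cells, was at 294.8 and 273.8 RPKM, and Scarb2, the receptor that carries glucocerebrosidase to lysosomes, at 41.4 and 43.9. Npc1 and Npc2 hand cholesterol out of the lysosome, NPC1 in the membrane and NPC2 in the lumen, and their RNAs were at 20.9 and 26.01 RPKM and at 27.6 and 45.4 RPKM. Mcoln1, a calcium channel, was at 11.9 and 20.1 RPKM, a ratio of 1.69. Lipa, which supplies the free cholesterol, thus had a ratio of 3.39 where Npc2 had 1.64 and Npc1 1.25.

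The V-ATPase has a membrane sector, V0, which carries protons, and a cytosolic sector, V1, which burns ATP. All 12 of its genes had log2 fold changes between 0.0015 and 1.46. Of these, 10 lay below the median of all genes kept and were therefore negative after median centring. Most of the 12 are abundant, however, and genes with a mean RPKM of at least 50 had a median of 0.038. After centring within bins of level only Atp6v0c and Atp6v1d were negative, at -0.0079 and -0.11. The 4 V0 genes had a median of 0.12. Atp6v0c, the main proton-carrying subunit, was at 119.2 and 119.3 RPKM, and its counting interval of -0.026 to 0.029 includes 0. That holds for the values as deposited, and after median centring it was at -0.52. Atp6v0c has processed pseudogenes, and how the authors assigned shared reads is not given in the sources used here. Its relative Atp6v0b was at 111.1 and 124.7 RPKM, Atp6v0d1 at 84.8 and 88.7, and Atp6v0e at 82.3 and 105.4.

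Of the 6 V1 genes 2 rose (33.3%), near the 31.5% of all genes kept. Atp6v1a, the catalytic subunit, rose from 21.4 to 47.2 RPKM, 2.20-fold, and Atp6v1h, a regulatory subunit, from 4.72 to 13.0, 2.76-fold. After median centring both lay within 2-fold, at 0.61 and 0.94. These were the lowest V-ATPase members in PBS, together with Atp6v1d at 30.9 RPKM, which was at 32.2 with exosomes. Atp6v1b2, which alternates with Atp6v1a in the ring of the pump, was at 135.6 and 176.3 RPKM. The A to B2 RNA ratio was 0.158 in PBS and 0.268 with exosomes. Atp6v1e1 and Atp6v1f had ratios of 1.29 and 1.42. The accessory genes Atp6ap1 and Atp6ap2 were at 159.5 and 170.8 RPKM and at 47.6 and 65.2 RPKM.

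Other subunits of the pump, isoforms and associated proteins outside the members were read from a fixed list of 16 genes. Of these, 15 had a row under their own symbol and 8 of those were kept. Atp6v0a2 stands in the tables as a pair of rows, which were left out of these counts: Atp6v0a2_1 was at 5.18 and 9.38 RPKM and Atp6v0a2_2 at 6.75 and 12.1. Of the 8 genes, 1 (12.5%) rose and 2 (25%) fell, beside 31.5% and 5.62% of all genes kept. The median log2 fold change of the 8 was 0.30. Atp6v1g1, the highest in PBS, was at 93.9 and 106.0 RPKM. The fallen genes, named here after their values were seen, were Atp6v0a1, from 66.5 to 28.4 RPKM, and Atp6v1g2, from 3.43 to 1.19, and the gene that rose was Atp6v1c1, from 16.5 to 35.4. Tcirg1, the a3 isoform that replaces a1 in lysosomes of phagocytes and osteoclasts, was at 23.1 and 38.1 RPKM. The a1 to a3 RNA ratio was 2.88 in PBS and 0.746 with exosomes.

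Other lysosomal genes were counted in lists written by hand from general knowledge. Over all 8 lists, 116 genes had a row under the listed symbol and 99 were kept, of which 31 (31.3%) rose and 9 (9.09%) fell, beside 31.5% and 5.62% of all genes kept. Without the cystatins and stefins, which are protease inhibitors, 30 of 93 (32.3%) rose and 6 (6.45%) fell. The list of lipases, nucleases and phosphatases had 10 of 15 that rose, 9 of them at least 4-fold, and a median log2 fold change of 2.22. Pla2g15, a phospholipase, rose from 0.98 to 8.22 RPKM, 8.39-fold. The acid phosphatases Acp2 and Acp5 rose 6.62-fold and 6.53-fold, from 2.20 RPKM each, and Smpdl3a, a phosphodiesterase, rose 4.75-fold, from 37.5 to 178.1. Naaa, Plbd2 and Ppt2 rose 4.71-fold, 4.67-fold and 4.49-fold. Rnaset2a rose from 55.9 to 271.4 RPKM and Rnaset2b from 11.5 to 57.6, and as near-identical copies their separate values are uncertain.

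Of 6 proteases outside the members that were kept, 3 rose and 1 fell. Beside the counts in this paragraph stand the 31.5% of all genes kept that rose and the 5.62% that fell. Ctsc, which activates the serine proteases of neutrophil granules, rose from 3.94 to 28.6 RPKM, 7.25-fold, whereas Ctse, an aspartic protease and the highest of the list in PBS, fell from 139.4 to 68.4. The other glycosidases and sulfatases had 3 of 18 that rose and 0 that fell, with a median log2 fold change of 0.63. Hgsnat, which acetylates heparan sulfate, was the highest in PBS, at 62.3 and 35.3 RPKM. Of 22 other membrane proteins 5 rose and 2 fell, with a median log2 fold change of 0.51, and Slc15a3, a peptide and histidine transporter, was the highest in PBS at 130.8 and 152.8.

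Delivery of many enzymes to lysosomes depends on mannose 6-phosphate tags and their receptors. Of 7 genes kept from a wider list on the delivery and activation of enzymes, 4 rose and 0 fell, beside 31.5% and 5.62% of all genes kept. Nagpa, which uncovers the tag, rose from 1.77 to 11.2 RPKM, 6.33-fold, and Sumf1, which activates sulfatases, from 2.03 to 9.40, 4.63-fold. The receptor gene M6pr, named after its value was seen, rose from 25.7 to 85.9 RPKM, and the other receptor gene, Igf2r, was at 11.6 and 18.1. Sort1, the highest of the list in PBS, was at 30.1 and 25.2.

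**Figure D5:**
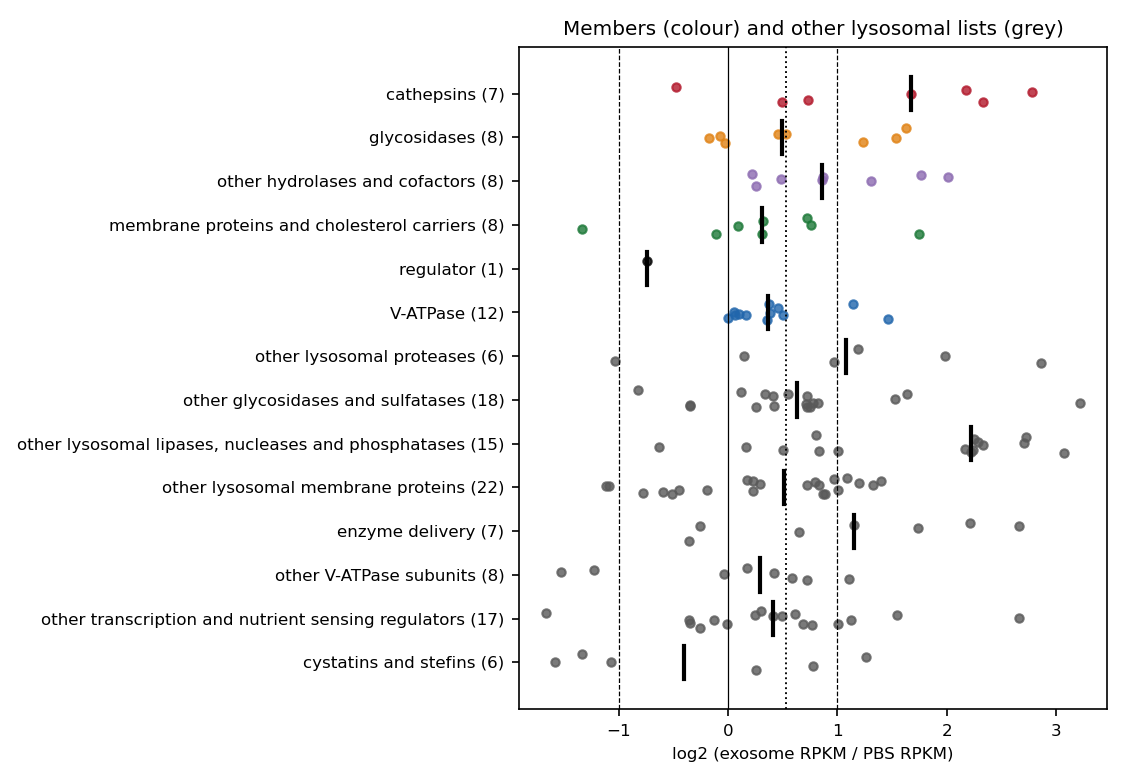
Log2 of the exosome over the PBS RPKM (horizontal axis) of each gene kept, for the member classes (colour) and the other lysosomal lists (grey), with the number of genes in brackets. Bars mark medians, dashed lines 2-fold and the dotted line the median of all genes kept, 0.53. The V-ATPase members have a median of 0.36, and the lipases, nucleases and phosphatases one of 2.22.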

How the data were processed

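TruSeq mRNA libraries of neutrophils given PBS or SDCSC exosomes were sequenced. Low-quality bases were trimmed and RPKM values computed by the authors with CLC Genomics Workbench, and 1 RPKM value a feature was deposited for each sample. The submitters' processing notes name mm10. The gene annotation and the handling of reads that match several genes are not given in the sources used here. The tables hold 25 features with a date serial number for a name, which stayed in all counts.

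RPKM is not a count, and no model for counts was fitted. Mapped reads were estimated as the commonest total among values below 0.01 RPKM, taken as 1 read each over the longest transcript in GENCODE M21, which need not be the authors' gene model. Of 918 such values in PBS 225 gave that total, and 270 of 1064 with exosomes. Without lengths, the depth ratio was 1.2. These reads served for counting intervals only.

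Ratios were taken without a pseudocount. The members and lists were chosen with earlier results of these data known. Genes outside the members were named when they changed at least 4-fold, when highest in a list in PBS, or as fixed markers, and 2 genes that this rule selects are not reported here. Tfe3, Mitf, Mtor, Tcirg1, Igf2r, Cst3, Cstb and genes so marked in the text were named after their values were seen. Lists were matched by the listed symbol, so rows under an older symbol or split into several rows were not counted. Gene positions and promoters came from RefSeq (GRCm38.p6). For the promoter search 81.0% of the genes kept were matched by symbol or synonym. Alternatives were median centring, subtraction of a trimmed mean log ratio (30% of ratios and 5% of means off each end), centring within 10 bins of level, TPM, a pseudocount of 1, an RPKM of at least 1, no filter with a pseudocount of 0.25, and ratios of 1.5 and 4. Scripts (Python 3.11.15, pandas 2.3.3, SciPy 1.17.1) were tested on simulated reads.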

Additional observations from a re-analysis of the deposited data

How the results depend on the processing

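Of 14 members past 2-fold, 8 stayed past it in all 8 settings that give a log2 value, the reported one included: Ctsa, Ctsb, Ctsl, Ctss, Lipa, Lgmn, Lamp1 and Cd63. The sign changed in some setting for 20 of 44 members, all of them within 2-fold. Median centring, which shifts every value by 0.53, left 9 members up and 2 down (Cd63 and Tfeb), 14 other lysosomal genes down and 18 up, 0 V-ATPase genes up, and a member median of -0.058, while 1634 of all genes were up and 1282 down. With a trimmed mean removed, 8 members were up and 3 down, 1 cathepsin (Ctsd) was down, 1 glycosidase and 0 V-ATPase genes were up, 18 other lysosomal genes were up and 14 down, and the member median was -0.073. Of all 9698 genes kept 1594 were then up and 1322 down. Centring within bins of level left 9 members up and 2 down, 1 glycosidase and 0 V-ATPase genes up, 18 other lysosomal genes up, a member median of 0.35 against 0 for all genes, and 1290 of all genes up against 1304 down. At a ratio of at least 1.5, 18 members were up and 2 down, with 5 other hydrolases, 3 membrane proteins and 53 other lysosomal genes up. At that ratio 4586 of the 9698 genes kept were up and 1092 down. At a ratio of at least 4, 4 members were up and 0 down, with 1 other hydrolase, 0 glycosidases, 0 membrane proteins and 0 V-ATPase genes up, 0 membrane proteins down, and 14 other lysosomal genes up and 0 down. Beside these, 826 of the 9698 genes kept were up and 111 down. TPM, an RPKM of at least 1 and either pseudocount left 12 or 13 members up and 1 down. The other lysosomal genes include the cystatins and stefins, and settings for them and for all genes were added after seeing the data. No paired analysis was possible because each group holds 1 library. Counting intervals were narrower than the shift of 0.53 for all members but Glb1, whose interval ran from 1.32 to 1.93. Depth thus hardly limits the other members, whereas the lack of replicates limits all of them.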

Other observations

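Inhibitors of cysteine cathepsins were also read. Of 8 cystatin and stefin genes 6 were kept, of which 1 (16.7%) rose and 3 (50%) fell, beside 31.5% and 5.62% of all genes kept. The median log2 fold change of the 6 was -0.41. Stfa2l1, the highest in PBS, fell from 920.5 to 440.1 RPKM. The other changed genes, named after their values were seen, were Stfa2, from 130.6 to 51.6, Stfa1, from 3.44 to 1.15, and Stfa3, from 30.8 to 73.8. Stefin A genes are near-identical copies, so their separate values are uncertain. Cst3, which encodes the secreted inhibitor cystatin C, was at 244.2 and 291.0 RPKM, and Cstb, a cytosolic inhibitor, at 102.8 and 176.2.

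Of 17 genes kept for related transcription factors and for nutrient sensing at the lysosome, 4 (23.5%) rose and 1 (5.88%) fell. Beside these shares stand 31.5% and 5.62% of all genes kept. The 17 had a median log2 fold change of 0.41, beside 0.53 for all genes kept. Rptor, a subunit of mTORC1, the kinase complex that restrains TFEB, rose from 0.41 to 2.59 RPKM, 6.32-fold, while Mtor itself was at 4.10 and 5.76. Lamtor1, the highest in PBS and the anchor of mTORC1 at the lysosome, was at 51.2 and 78.2 RPKM. The gene that fell was Rragd, a GTPase gene that TFEB is known to induce, from 2.82 to 0.89, named after its value was seen.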
